A study of Mus musculus with 2 samples.

Results

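Antisense RNA genes are transcribed from the strand opposite another gene, and 241 of them were counted well in the nucleoplasm of Lipid A-stimulated macrophages. They are 241 of 55536 annotated genes. They were chosen by their annotation and by their measured level. Each has a transcript of class antisense, none of class protein-coding or lincRNA, and a mean of at least 50 expected counts over both libraries; the small nucleolar RNA hosts Snhg and Gas5 and the X-inactivation regulator Tsix were left out by name. Without the count floor the same rule takes 3063 genes, and the 241 held 85.9% of their expected counts. Of the 2822 genes below the floor, 1548 had 0 counts in both libraries.

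The study sequenced total RNA, depleted of ribosomal RNA, from the nucleoplasm of bone marrow-derived macrophages, primary cells grown from the marrow of C57BL/6J mice. There was 1 group: all cells received Lipid A, the lipopolysaccharide part that activates the receptor TLR4, at 100 ng/ml for 30 min. It had 2 libraries, called biological replicates 1 and 2 in the labels, made from 1 µg and 500 ng of RNA; both cite the same donor entry, so the spread between them may be technical. Some labels call the fraction nuclear, no age is given, and unstimulated cells were not analysed here, so the levels do not show which genes responded.

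The libraries held 15846212 and 14874879 expected counts on annotated genes. Levels per length are given as TPM, the transcripts of a gene in a fixed total. All 10 macrophage markers had 1 TPM or more in each library, with summed levels of 3075 and 3753 TPM. The 5 B cell markers summed to 0.31 and 0.41 TPM, the 5 fibroblast markers to 0.40 and 0.17 TPM, the 5 erythroid markers to 2.18 and 2.43 TPM and the 7 neutrophil markers to 2.98 and 6.15 TPM. Of 6 T cell markers, Cd3d, Cd3e and Cd3g were at 0 in both, and the summed 24.1 and 35.1 TPM came with 1 marker above a TPM of 1. The part of other cells in the results was not tested. The median TPM ratio of replicate 2 to replicate 1 over well-counted genes was -0.44 on the log2 scale, so ratios between libraries below use counts scaled by TMM (trimmed mean of M values) instead.

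Antisense transcripts can overlap the end of a coding gene, lie within its introns, or start close to its promoter and run the other way. Some stay on the chromosome and silence neighbouring genes in cis, as the imprinted RNAs Kcnq1ot1 and Airn do, while for most no function is known. In stimulated macrophages antisense and divergent RNAs are often transcribed beside cytokine and transcription factor genes.

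The sources used here do not say whether strand was used in counting. Reads from an antisense gene and from the unspliced or spliced RNA of the coding gene opposite therefore cannot be told apart by these tables, and fewer cells and less RNA per cell cannot be told apart in bulk samples. The data bear on this through the counts themselves. An expected count that is not whole shows that reads were divided among genes. Leaving out genes that share exon bases on their own strand, 73 antisense genes shared no exon base with a gene on the other strand, and 71 of these (97.3%) had counts within 0.005 of a whole number in both libraries. Of the 153 that did share exon bases, 41 (26.8%) had whole counts and 112 did not. Levels of the sharing genes are uncertain for that reason. A whole count does not show the strand of its reads. Reads from unspliced RNA of the coding gene opposite would stay whole where no annotated exon competes for them. Levels of the genes that share no exon base are therefore uncertain too.

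Antisense genes took 81705 of the counts in replicate 1, or 0.516% (95% Wilson interval 0.512 to 0.519%), and 62578 in replicate 2, or 0.421% (0.417 to 0.424%). These intervals cover counting error only. The mean count ran from 50 to 9801 with a median of 110, and 135 genes reached 100, 28 reached 500 and 9 reached 1000. The counts were concentrated: Kcnq1ot1 alone held 13.9% and 13.2% of them, and the 10 highest held 41.6% and 42.7%. The median level was 5.25 TPM in replicate 1 and 3.10 TPM in replicate 2, against 10.2 and 7.87 TPM for 9002 coding genes at the same floor. TPM reached 1 in both libraries for 219 of the 241 genes and 20 for 10 of them.

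Kcnq1ot1 (chr7:143203458-143296549, minus strand) is the imprinted antisense RNA that lies within the potassium channel gene Kcnq1 and silences genes of its cluster in cis. It had 11320 and 8282 expected counts, the most of any antisense gene here. Spread over its single exon of 93092 bases this was 7.12 and 4.28 TPM, rank 92 by level. Kcnq1 itself had 5 and 11 counts, or 0.18 and 0.22 TPM. Airn (chr17:12741311-12860136, plus strand), the RNA that starts within an intron of Igf2r and silences the paternal copy of that gene, had 116 and 89 counts, or 9.83 and 5.79 TPM. Igf2r, a receptor that carries enzymes to lysosomes, stood above it at 30.2 and 27.5 TPM.

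F630028O10Rik (chrX:96239926-96243636, plus strand), annotated as antisense but overlapping no coding gene on the opposite strand, had 3144 and 3903 counts, or 69.3 and 70.6 TPM. Gm16712 (chr17:55954771-55959381, minus strand) starts 282 bases from the splicing factor gene Yju2 and runs the other way. It had 920 and 701 counts, or 31.1 and 19.1 TPM, above the 8.15 and 5.20 TPM of Yju2. It also overlaps the cytokine subunit gene Ebi3 on the opposite strand, with 26.4% of its exon bases in coding exons, and Ebi3 had a similar 30.6 and 17.6 TPM. The 300 bases around the RefSeq starts of these 4 genes are shown because they stand for 4 arrangements: a long RNA inside a coding gene, a start in an intron, no overlap, and a start near a second coding gene. They were picked after values were seen, from genes whose RefSeq start lies within 50 bases of the annotated start and whose window holds no exon base of a coding transcript. Each runs 5′ to 3′ on the gene's own strand, with 250 bases before the start and 50 from it on; capitals mark matches on either strand to any of 9 motifs, of which 4 occur in these windows. They are the CCAAT box, the core GAGGAA bound by PU.1, an ETS factor of macrophages, the GC box GGGCGG and the TATA box TATAAA, and neighbouring matches can overlap. Sequences are from RefSeq on GRCm38.p6.
Kcnq1ot1, chr7:143296498-143296797, minus strand: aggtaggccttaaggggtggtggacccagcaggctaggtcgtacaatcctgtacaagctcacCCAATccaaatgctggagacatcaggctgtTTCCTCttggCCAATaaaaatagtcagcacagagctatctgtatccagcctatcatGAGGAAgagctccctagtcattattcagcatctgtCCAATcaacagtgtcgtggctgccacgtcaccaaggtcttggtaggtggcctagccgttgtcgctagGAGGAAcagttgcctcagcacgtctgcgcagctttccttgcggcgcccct
Airn, chr17:12741061-12741360, plus strand: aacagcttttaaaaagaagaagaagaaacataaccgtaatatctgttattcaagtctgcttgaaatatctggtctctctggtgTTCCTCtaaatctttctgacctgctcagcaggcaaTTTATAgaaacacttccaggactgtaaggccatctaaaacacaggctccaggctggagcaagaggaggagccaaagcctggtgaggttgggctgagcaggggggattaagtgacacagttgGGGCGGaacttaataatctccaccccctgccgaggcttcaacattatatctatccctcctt
F630028O10Rik, chrX:96239676-96239975, plus strand: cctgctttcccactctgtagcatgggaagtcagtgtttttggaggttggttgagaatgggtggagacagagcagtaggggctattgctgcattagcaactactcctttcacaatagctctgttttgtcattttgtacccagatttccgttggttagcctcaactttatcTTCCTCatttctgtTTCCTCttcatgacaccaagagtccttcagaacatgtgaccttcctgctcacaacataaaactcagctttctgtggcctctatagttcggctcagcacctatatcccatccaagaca
Gm16712, chr17:55959352-55959651, minus strand: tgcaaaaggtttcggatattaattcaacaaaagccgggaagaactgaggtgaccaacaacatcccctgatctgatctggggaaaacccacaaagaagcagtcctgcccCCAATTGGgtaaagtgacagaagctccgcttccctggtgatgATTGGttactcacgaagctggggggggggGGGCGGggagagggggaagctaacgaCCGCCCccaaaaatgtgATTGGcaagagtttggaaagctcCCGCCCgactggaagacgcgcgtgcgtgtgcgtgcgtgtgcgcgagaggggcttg

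The Kcnq1ot1 window held 3 CCAAT boxes on its own strand, beginning 188, 148 and 67 bases before the start, and 3 GAGGAA matches. Gm16712 held 4 CCAAT and 3 GC box matches and 17 CpG dinucleotides, against 9 in Kcnq1ot1, 3 in Airn and 2 in F630028O10Rik. Across the antisense genes, 97 had a RefSeq window and 54 had one within 50 bases of the annotated start. The 15 head-to-head genes among these 54 had a median of 20 CpG per window, the 39 others 4, and all 32851 windows 7. Of the 54 windows, 18 (33.3%) held CCAAT against 37.4% of all windows, 18 (33.3%) held GGGCGG against 35.7%, 7 (13.0%) held TATAAA against 13.6%, and 15 (27.8%) held GAGGAA against 28.3%. Matches to TGACTCA, the AP-1 site, were in 5 (9.26%) against 5.20%, and to the kappaB consensus in 7 (13.0%) against 8.46%. CACGTG, the E-box, was in 4 (7.41%) against 7.15%, CCGGAAG, an ETS site, in 2 (3.70%) against 8.86%, and TGACGTCA, the cyclic AMP response element, in 0 against 1.79%. These shares are descriptions of letters, and no binding was measured.

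Tug1 (chr11:3639785-3649673, minus strand), a conserved nuclear RNA that starts 482 bases from the chromatin gene Morc2a, had 2635 and 3036 counts, or 42.7 and 36.6 TPM (39.6 ± 4.36, SD, n = 2). Morc2a had 25.7 and 15.6 TPM. Tug1 has 8 annotated transcripts, and 86.5% and 92.6% of its counts lay on spliced ones. AC119228.1 (chr19:29373417-29384471, minus strand) lies inside Cd274, the gene of the checkpoint ligand PD-L1, and had 5081 and 4377 counts. Its 80.4 and 55.1 TPM were below the 171 and 132 TPM of Cd274, with 10.8% of its exon bases in coding exons. 4933423P22Rik, within introns of the phosphatase gene Ptprj, had 1859 and 1028 counts, all whole, and 36.5 and 16.4 TPM.

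Gm2245, inside Fyb, the gene of an adaptor of immune receptors, had 1690 and 631 counts, or 31.4 and 9.55 TPM, against 502 and 208 TPM for Fyb. Gm10634, across Bcl2a1d of the Bcl2a1 survival gene family, had 1490 and 564 counts. The Bcl2a1 copies are nearly identical, so its counts are uncertain. Gm37787, inside Slamf7, a receptor of immune cells, had 53.2 and 17.9 TPM, with 72.3% of its exon bases in coding exons. 4930430E12Rik overlapped no coding gene on the other strand and had 315 and 378 counts, or 35.6 and 30.9 TPM, close to each other in both libraries.

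**Figure D1:**
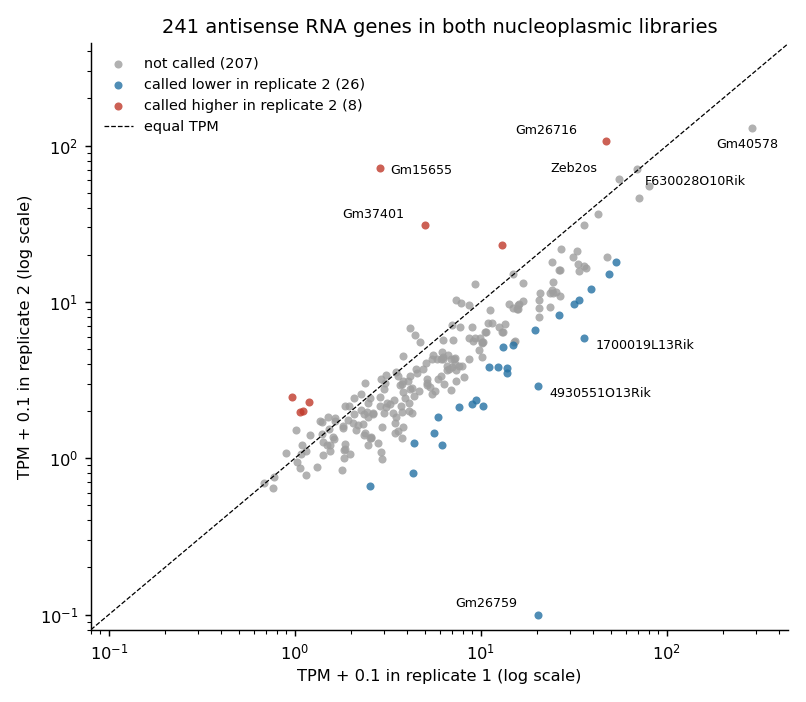
Each point is 1 of the 241 antisense RNA genes, with TPM + 0.1 in replicate 1 on the x axis and in replicate 2 on the y axis, both log scales. Most points lie below the dashed line of equal TPM, Gm15655 and Gm26759 lie farthest from it, and colours mark the 8 genes called more than 2-fold higher and the 26 called lower in replicate 2 from TMM-scaled counts.

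By annotation, 135 of the 241 genes (56.0%) lay wholly inside a coding gene on the opposite strand, 57 (23.7%) started head-to-head within 1 kb of a coding gene, 26 overlapped its 3′ end, 17 its 5′ end, 1 spanned it and 5 overlapped none. Below the floor 51.9% lay inside and 21.8% were head-to-head. The well-counted genes were longer in exons, with a median of 2427 exon bases against 888 below the floor, while the median spans were 5748 and 5915 bases. Longer genes collect more counts, which the floor uses. Only single-exon transcripts were annotated for 38 (15.8%), against 5.28% below the floor. The median share of counts on spliced transcripts, those annotated with more than 1 exon, was 100%. For the 148 genes with 1 annotated transcript this share was fixed by the annotation. It does not show that the reads came from spliced RNA. The 19 genes with counts on both kinds had a median of 16.5% on spliced ones. In Il1bos that share was 44.1% and 45.5%.

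The antisense gene was the lower of the pair in most cases. With a coding gene opposite for 236 of the 241, 200 were lower than it in both libraries and 30 were higher in both. The median log2 ratio of antisense to sense TPM, each with 0.1 added, was -2.26 from library means, and -2.31 and -2.29 in replicates 1 and 2. Of the partners, 214 reached a TPM of 1 in both libraries, and their median was 23.9 TPM. A median of 16.4 TPM was seen for the partners of head-to-head genes and 25.4 TPM for those of genes inside. Antisense and sense levels had a Spearman correlation of 0.50 over the 236 pairs, which share libraries and positions. It was 0.64 for 73 genes lying in introns only and 0.44 for 163 sharing exon bases with the coding gene. The ratio was -1.93 in the introns-only genes and -2.42 in the others.

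**Figure D2:**
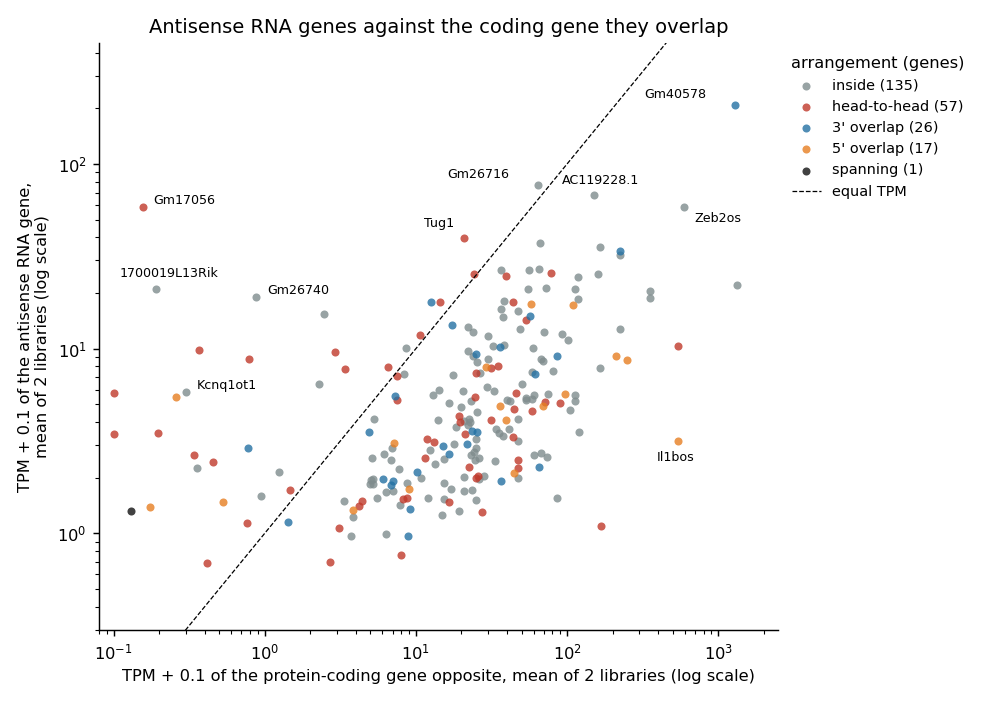
Each of 236 points is an antisense RNA gene, with its TPM + 0.1 on the y axis against that of the coding gene opposite on the x axis, means of 2 libraries on log scales; colours give the arrangement. Most points lie right of the dashed line of equal TPM, and Gm17056, 1700019L13Rik and Kcnq1ot1 lie far to its left.

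Several antisense genes stood opposite a coding gene that was nearly silent. Of the 30 that were higher in both libraries, 19 had a partner below 1 TPM in both, and 16 were head-to-head. Gm17056 (chr12:40198656-40201105, plus strand) had 2500 and 2000 counts, or 70.6 and 45.8 TPM, while Lsmem1, 834 bases from its start, had 1 count in each library. 1700019L13Rik (chr9:119983146-119988092, plus strand) lies inside Cx3cr1, the fractalkine receptor gene of monocytes and microglia, and had 883 and 184 counts against 5 and 5. In level it had 35.9 and 5.80 TPM, and it is among the genes called lower in replicate 2. Another coding gene on the opposite strand, Csrnp1, starts 1512 bases from the start of 1700019L13Rik and had 152.06 and 80.85 TPM.

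Gm26740, within introns of Raet1e, a ligand gene of the receptor NKG2D, had 24.4 and 13.3 TPM against 0.57 and 0.98 TPM. Gm47079, across the adhesion gene Icam4, had 13.1 and 6.29 TPM against 0.53 and 0 TPM. Gm27177 had 4.07 and 6.69 TPM opposite Loxl2, which had 0.19 and 0.13 TPM. For Etohd2 and Tmem147os the overlapping coding genes, Gm49354 and Gapdhs, were listed at 0 in both, and their own levels were 7.53 and 3.81 TPM and 4.26 and 2.41 TPM. The coding genes nearest their starts were not silent. Isca1, 313 bases from Etohd2, had 4.31 and 6.38 TPM, and Tmem147, 39 bases from Tmem147os, had 3.51 and 5.03 TPM. Together with Kcnq1ot1 the antisense genes of this and the preceding paragraph have the 8 highest ratios of antisense to sense TPM, and 4 of the 8 genes are head-to-head. These ratios depend on the partner being the gene with the largest span overlap.

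Among the 57 head-to-head genes the median distance between starts was 333 bases. The gene sharing the start region was active in most pairs, and 44 of 57 had 1 TPM or more in each library. The coding gene was higher in both libraries in 34 pairs and the antisense gene in 18, with a median log2 ratio of -1.12. Zfas1, 81 bases from Znfx1, had 33.7 and 15.7 TPM against 46.7 and 31.7 TPM. Gt(ROSA)26Sor, the RNA of the locus used for knock-in alleles, starts 32 bases from Setd5 and had 14.0 and 9.54 TPM against 70.8 and 40.7 TPM. 1600020E01Rik, 74 bases from Pcbp1, had 23.9 and 11.8 TPM against 15.9 and 12.5 TPM, so its order changed between the libraries. Brip1os, 177 bases from the helicase gene Brip1, had 6.93 and 7.01 TPM against 0.58 and 0.28 TPM. Gm37305, 491 bases from the cyclin gene Ccnl1, had 13.4 and 7.15 TPM against 755 and 321 TPM. These 5 were named after their values were seen.

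Of 197 genes on 5 lists of inflammatory response and macrophage identity, 9 were the partner of a well-counted antisense gene, and 10 antisense genes lay opposite them. Lists were matched only to the coding gene with the largest span overlap or with a start within 1 kb. A listed gene with a smaller overlap was therefore not counted. All 10 were lower than the coding gene in both libraries. The NF-kB and feedback list gave 3 genes (of 34), macrophage identity 3 (of 41), and cytokines (of 46), immediate-early regulators (of 42) and interferon genes (of 35) 1 each. Listed or not, 226 distinct coding genes were the partner of a well-counted antisense gene. Their share of all coding genes was not computed, so these counts do not show whether listed genes differ from others. No antisense gene of these 10 started within 1 kb of its partner's start.

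Gm40578 (chr12:111450405-111500840, minus strand) had the highest TPM of the 241 genes in the gene tables, but not in the second transcript tables, where it had 148 and 62.3 TPM against 211 and 194 for Zeb2os and 200.2 and 86.6 for Gm20234. It had 3407 and 1925 counts, or 288 and 129 TPM (209 ± 113, SD, n = 2). It overlaps the 3′ end of Tnfaip2, a gene named for its induction by tumour necrosis factor, which had 1928 and 639 TPM, and it overlaps Gm266 on its own strand. Both genes of the pair were higher in replicate 1. Zeb2os (chr2:45110707-45114087, plus strand), inside Zeb2, a transcription factor gene that keeps macrophage identity, had 827 and 945 counts, or 55.3 and 60.9 TPM (58.1 ± 3.92, SD, n = 2). Zeb2 had 820 and 367 TPM, and the log2 library ratio described further on was 0.26 for Zeb2os and -0.64 for Zeb2.

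Il1bos (chr2:129369897-129375748, plus strand) overlaps the 5′ end of Il1b, the gene of the cytokine interleukin-1β, and starts 1242 bases from its start. It had 100 and 75 counts, both whole, or 3.83 and 2.31 TPM, against 721 and 371 TPM for Il1b. At -7.43 on the log2 scale this was the lowest ratio among the 23 genes whose symbol ends in os. Gm26885 overlaps the 5′ end of Pim1, a kinase gene, and had 731 and 224 counts, or 13.7 and 3.39 TPM, against 302 and 193 TPM. Gm28913 and Gm28914 both lie inside Ikbke, the gene of the kinase IKK-epsilon, which had 335 and 114 TPM; Gm28913 had 48.9 and 14.9 TPM and Gm28914 15.8 and 9.44 TPM. The members of this pair share a target gene and are not independent of each other.

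Gm45479, in an intron of the interferon regulator gene Irf2, had 144 and 65 counts, or 14.7 and 5.22 TPM, against 87.2 and 31.0 TPM. Gm26626, inside Runx1, a transcription factor gene of blood cells, had 86 and 26 counts, or 8.86 and 2.11 TPM, against 145 and 80.1 TPM. Both antisense genes and both coding genes were lower in replicate 2. Gm15655 opposite Maf and Gm26759 opposite Irf2bp2, described with the library ratios, complete the 10. Gm15655 and Gm26759 were put on the list of known antisense RNAs because of earlier results of these data.

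**Figure D3:**
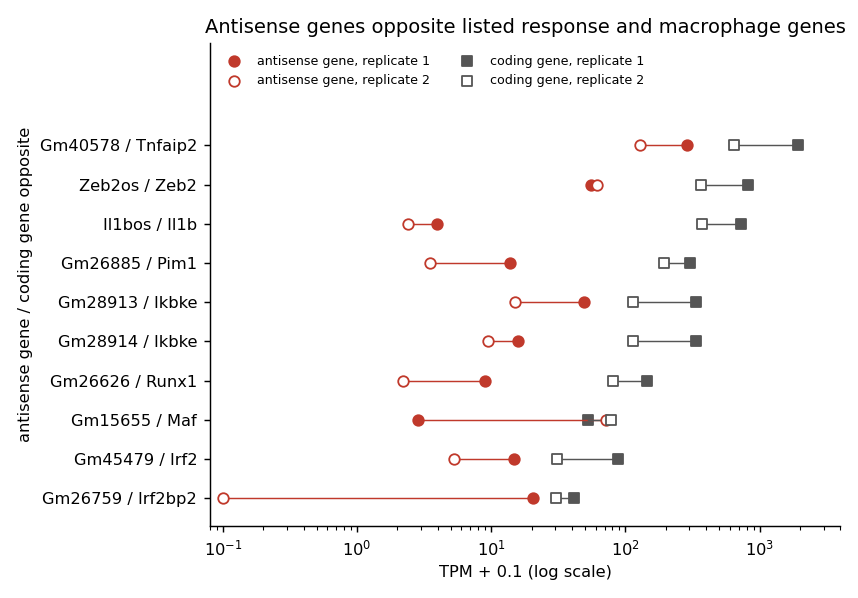
For each of 10 antisense genes (red circles) and the listed coding gene opposite (grey squares), TPM + 0.1 is given on a log scale in replicate 1 (filled) and replicate 2 (open), joined by a line. Every red circle lies left of the square of the same replicate, Zeb2os circles nearly coincide, and Gm15655 and Gm26759 span the widest ranges.

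Of 27 known antisense and regulatory RNAs, 17 had counts in replicate 1 and 16 in replicate 2. Among the 241 are 5 of them: Kcnq1ot1, Airn, Zeb2os, Gm15655 and Gm26759. The last 2 were listed because of earlier results of these data, so these totals are descriptions only. Ptgs2os, beside the prostaglandin synthase gene Ptgs2, had 5 and 10 counts and fell below the floor. Hotairm1, a myeloid RNA of the HoxA cluster, had 0 counts in both libraries, which by counting error alone allows up to 3. The Hox, Six3 and Wt1 antisense RNAs of the list, which belong to embryonic patterning genes, had at most 1 count. Foxd2os of the same list had 6 and 16 counts, and Gm26992, annotated as protein-coding, had 762 and 0.

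Of the 23 genes whose symbol ends in os, 19 had their namesake as partner, and 20 were lower than their partner in both libraries, with a median log2 ratio of -2.85. Rab10os had 16.8 and 10 TPM, against the 17.3 and 17.1 TPM of Rab10, a vesicle transport GTPase. Kdm6bos, inside the histone demethylase gene Kdm6b, had 14.8 and 9.04 TPM against 132 and 52.5 TPM. Mypopos had 7 and 5.64 TPM and exceeded the 2.41 and 1.95 TPM of Mypop. Igf1os, with 8 and 3.21 TPM, and Dnmt3aos, with 6.22 and 2.88 TPM, were far below Igf1 at 95.5 and 97.5 TPM and Dnmt3a at 139 and 70.7 TPM. These 5 were named after their values were seen.

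The 236 genes with a partner lay opposite 226 distinct coding genes, and 7 of these carried more than 1. Arhgap10, a GTPase-activating protein gene at 80.5 and 26.3 TPM, carried 3: 0610038B21Rik with 20.5 and 7.94 TPM, Gm45406 with 6.85 and 3.72 TPM, and 4933421D24Rik with 6.14 and 4.21 TPM. Lrmda, at 50.6 and 22.6 TPM, also carried 3, with Gm7480 the highest at 35.9 and 16.9 TPM. Zbtb20, a repressor gene at 18.7 and 11.9 TPM, carried 3 at lower levels, from 1.39 to 3.46 TPM for Gm15713 and 0.97 to 1.88 TPM for Gm19522. Antisense genes were found on 20 chromosomes, with 24 on chromosome 7 and 4 on the X.

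Antisense genes sat lower in replicate 2 than genes in general. The median log2 ratio of TMM-scaled counts, replicate 2 over replicate 1, was -0.31 for the 241 genes and -0.03 for all 10444 genes at the same floor. A different scaling factor would move both medians alike. The ratio was below 0 for 158 genes (65.6%), against 52.4% of all. The coding genes opposite had a median of -0.30, and coding genes at the floor in general 0.00 (n = 9002). Well-counted lincRNA genes had -0.07 (n = 174) and TEC genes, unspliced loci awaiting experimental proof, -0.41 (n = 616). The Spearman correlation of the ratio between antisense genes and partners was 0.29 over 236 pairs of the same 2 libraries. It was 0.34 for the 163 genes sharing exon bases with the coding gene and 0.13 for the 73 in introns only. The part of the starting RNA, 1 µg against 500 ng, in these ratios cannot be told apart from the replicate.

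**Figure D4:**
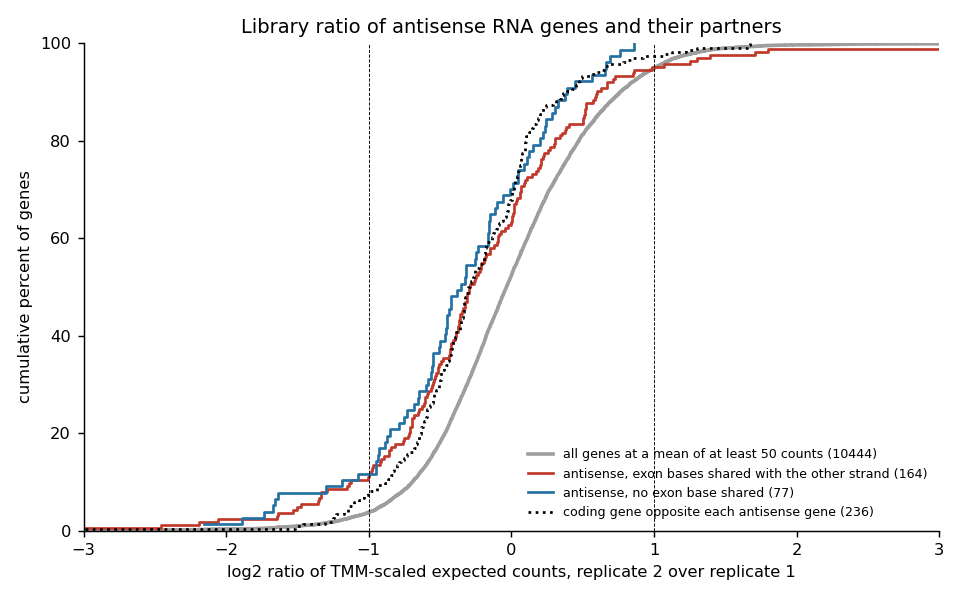
The x axis is the log2 ratio of TMM-scaled expected counts, replicate 2 over replicate 1, and the y axis the cumulative percent of genes; dashed lines mark 2-fold. The curves of antisense genes with (164) and without (77) exon bases shared with the other strand and of their partners lie left of the curve of all 10444 genes up to a ratio of about 1, where the sharing genes meet it.

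A gene was called beyond 2-fold if its ratio passed 2 in either direction and the authors' credibility bounds of its TPM did not overlap. The bounds are in TPM, so they were first shifted by -0.40 on the log2 scale, the difference between the median TPM ratio and the median scaled-count ratio over all well-counted genes. Higher in replicate 2 were 8 of 241 (3.32%), against a background of 4.29% over all 10444 genes, a share near the background. Lower were 26 (10.8%), against 3.41%. The floor is on the mean of both libraries, so a gene can pass it through the library where it is high. Gm15655, with 9.97 and 351 counts, and Gm26759, with 354 and 0, passed in that way. At least 50 counts in each library were held by 192 of the 241 genes, and calls among these alone were not computed. By the uncentred ratio of TPM instead of scaled counts 4 of 241 were higher (background 1.39%) and 57 lower (23.7%, background 11.6%). With the count floor raised to 200, 1 of 70 was higher (background 3.09%) and 11 were lower (15.7%, background 3.31%). With 2 libraries of 1 group there was no test, and the ratio compares these libraries only.

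All 8 higher genes shared exon bases with a gene on the other strand, and 4 had over 90% of their exon bases within coding exons, as only 6 of the 241 did. Gm15655, wholly within exons of Maf, a macrophage transcription factor gene, had 9.97 and 351 counts, or 2.75 and 71.5 TPM, against 52.9 and 78.4 TPM for Maf. Its log2 ratio was 5.13 and that of Maf 0.92. Gm37401, with 93.4% of its exon bases in coding exons at Rhoa, had 10.3 and 92.6 counts, with a ratio of 3.17. Gm26716, wholly within exons of the proteoglycan gene Sdc3, had 150 and 470 counts, with a ratio of 1.71. Gm17122, wholly within exons of the actin regulator Coro1c, had 32.1 and 81.1 counts, with a ratio of 1.39. Gm20633 and Gm20632 lie at 2 nearly identical copies of histone genes and had 38.4 and 129 counts and 38.1 and 87.5 counts, which are uncertain.

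Of the 26 lower genes, 18 shared exon bases with the other strand and 8 did not. Their partners had a median log2 ratio of -0.48, and 20 of 26 partners were below 0. Gm26759 (chr8:126566970-126590988, plus strand), with 83.1% of its exon bases in coding exons at the corepressor gene Irf2bp2, had 354 and 0 counts. The bounds of its TPM were 15.3 to 22.8 in replicate 1 and reached 2.05 in replicate 2, and the second tables gave it 342 and 63.3 estimated counts, so its level in replicate 2 is uncertain. Irf2bp2 had 41.0 and 30.3 TPM. 4930551O13Rik, inside the autophagy receptor gene Optn, had 290 and 50 counts, both whole, with a log2 ratio of -2.46. The ratio was -2.19 for 1700019L13Rik. 4933426K07Rik, within introns of Galnt10, had 95 and 20 counts, with a ratio of -2.15, where Galnt10 had 395 and 394. Gm45515 inside Swap70 had 198 and 45 counts, with a ratio of -2.06. Of the 10 genes opposite listed partners 5 were among the lower ones, namely Gm26885, Gm28913, Gm45479, Gm26626 and Gm26759, and 1, Gm15655, was among the higher. Over all 241 genes 26 (10.8%) were lower and 8 (3.32%) higher. The lists were chosen with earlier results of these data known, so the count for the 10 is a description only.

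The second transcript tables, made from the reads directly, gave antisense genes a larger share of counts. The log2 ratio of that share to the share in the gene tables had a median of 0.23 and 0.24 in replicates 1 and 2, against -0.08 and -0.08 for all genes. It exceeded 2-fold in both libraries for 35 of the 241 (14.5%), against a background of 3.27%, and fell below 1/2 in both for 2 (0.83%), against 0.287%. Of the 35, 31 had a mean below 200 counts in the gene tables and 12 shared no exon base with the other strand. A mean of 200 was reached by 70 of the 241 genes and by 6593 of all 10444. For this comparison a background matched on count was not computed.

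Gm20234 near Slfn2, a gene of the Schlafen family, had 399 and 206 expected counts but 4475 and 3126 estimated counts. Gm4117, in introns of the repair gene Xrcc4, had 242 and 250 against 4566 and 3536. Gm48754 in Rala had 139 and 80.0 against 2127 and 2485, Gm9917 at Rassf1 47.2 and 68.3 against 1221 and 1348, and Gm28370 52 and 50 against 1111 and 629. Airn had 785 and 563 estimated counts against 116 and 89 expected. In the other direction, Gm26716 had 6.24 and 246 estimated counts against 150 and 470 expected, and Gm44709, with 96.7% of its exon bases in coding exons at Supt5, had 14.8 and 3.91 against 58.8 and 45.1. Gm17122, Gm15512 and Gm37401 were the next lowest and stayed within 2-fold in at least 1 library. For Kcnq1ot1 the tables gave similar shares, with log2 ratios of shares of -0.02 and 0.03, and for AC119228.1 they were -0.23 and -0.18.

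**Figure D5:**
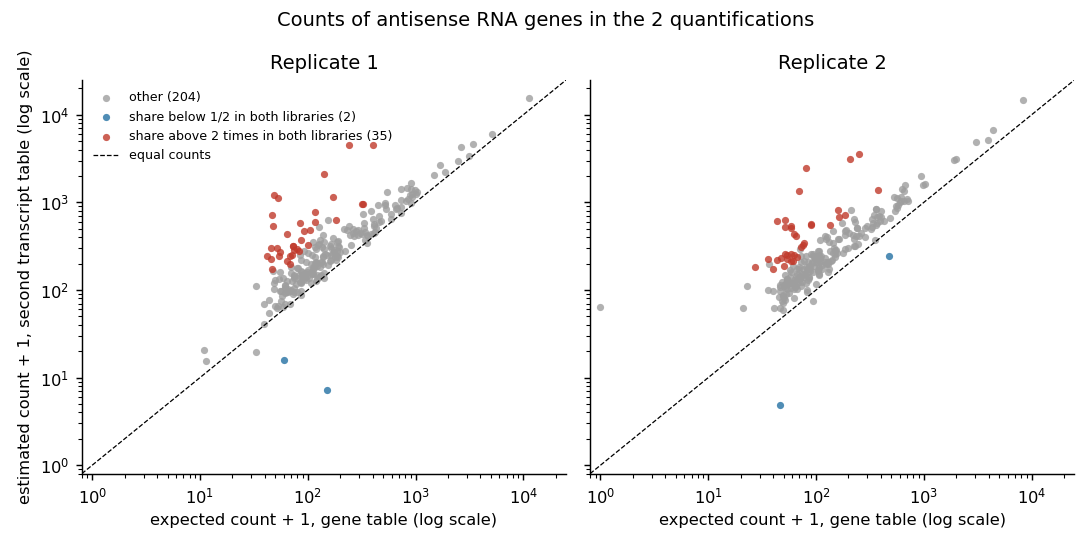
For each replicate, estimated counts + 1 of the second transcript table (y axis) are set against expected counts + 1 of the gene table (x axis) for the 241 genes, both on log scales. Red marks the 35 genes whose share of counts was above 2 times in both libraries, most of them under 200 expected counts, and blue the 2 below 1/2.

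The floor divided genes of nearly the same level. Just inside were 9330154K18Rik with 78 and 22 counts, Gm17089 with 47.2 and 53.0, Gm28988 with 49 and 52, Gm28370 with 52 and 50, and Gm16239 with 54 and 48. Just outside were Gm10851 with 63 and 36, A430057M04Rik with 76.3 and 22.2, 4921514A10Rik with 51.3 and 47.2, Gm45774 with 28 and 70.1, and 2610203C22Rik with 52 and 46.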

How the data were processed

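Per the deposited text files, every library came with a gene table and a pair of transcript tables, on the mm10 build and the GENCODE M21 annotation. The authors' gene tables and first transcript tables give expected counts (estimated counts that need not be whole), TPM and credibility bounds of the TPM, as named in the file headers; the level of the bounds is not stated. The bounds, a non-negative signal per gene, were used as deposited by the authors. The second deposited transcript tables give estimated counts and TPM, made from the reads directly. Names of the tools behind them are not given here, and FPKM was not used.

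Members were selected on transcript class and expected counts, and the members, lists and named genes were chosen with earlier results of these data known. Named genes are the 12 highest by TPM, the 10 highest by count, those opposite a listed gene, the 5 largest library ratios and table ratios each way, the 5 nearest the floor each side, the 8 highest antisense to sense ratios and listed known RNAs; others are said to be named after their values were seen or are counted members of a described group. The partner is the coding gene on the opposite strand with the largest span overlap. Ratios of TPM add 0.1. For library ratios, TMM factors came from edgeR 4.0.16 (R 4.3.3) on rounded expected counts, with DESeq2 1.42.0 size factors as an alternative, and bounds were shifted by the median log2 difference between TPM and scaled-count ratios (-0.40). By counting error alone a count of 0 allows 3 counts, or 1.89e-05% and 2.02e-05% of the libraries. The division of reads among genes is not covered by this limit. Gm26759, at 0 expected counts in replicate 2, had 63.3 estimated counts there. With 1 group no p-value was computed.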

Additional observations from a re-analysis of the deposited data

Results flagged for a closer look

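Some antisense genes at 0 expected counts in both gene tables had many estimated counts in the second transcript tables, which the results above do not use for levels. Of 1548 such genes, 117 had at least 50 estimated counts in both libraries. The same share over all annotated genes at 0 was not computed, so this count does not show whether antisense genes differ from others. Gm20400, opposite Slco1a6, had 2970 and 972.8 estimated counts in replicates 1 and 2, Gm45792, opposite Acsm1, had 1610 and 1256, and Gm15883, opposite Cyp2f2, had 717.6 and 271.1. There was no control sample, and each value lay above the 3 counts that a 0 allows by counting error alone. The cause was not tested.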

How the results depend on the processing

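The number of well-counted antisense genes moved from 241 to 444 with a floor of 20, to 135 with a floor of 100 and to 787 with estimated counts of the second transcript tables; a floor in each library gave 192, the annotation's own class 233, and single libraries 223 to 250. Head-to-head genes numbered 34 within 500 bases and 87 within 5 kb. The median log2 ratio of antisense to sense TPM was -1.97 with 1 added to TPM, -2.04 from the second tables, -2.42 for exon overlap, -2.46 for partners at a TPM of at least 1, -1.93 without shared exon bases, and -2.31 to -2.29 in single libraries. By uncentred TPM ratio 4 of 241 genes were higher in replicate 2 and 57 lower, against 1.39% and 11.6% of all genes. At a floor of 200, 1 and 11 of 70 were, against 3.09% and 3.31%. Of 77 without shared exon bases 0 and 8 were; a background without shared exon bases was not computed. Genes beyond 2-fold between tables went from 37 of 241 to 12 of the 77 without shared exon bases, also without a matching background. The settings without shared exon bases were chosen after seeing the data. All other settings kept each count within 1.5 times. Why the floor, the TPM ratio and the second tables moved the counts was not tested. No paired analysis was possible because there is 1 group. Low counts limit precision: 106 of 241 genes lay under a mean of 100 counts.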
